A study of Mus musculus with 12 samples.

Results

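The comparison set 2 cultures of mouse embryonic fibroblasts, each carrying 1 activating mutation of the KEAP1-NRF2 pathway, against each other. It used 6 of the 12 libraries of the series: 3 of cells expressing KEAP1 with the R554Q substitution and 3 of cells expressing NRF2 with the D29H substitution. The members were chosen by their labels alone, as the Cre-treated libraries of each table, and the genes were those listed in both count tables (20844 genes, from 22114 in the Nrf2 table and 21916 in the Keap1 table). RNA was sequenced and reads were counted per gene.

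Primary fibroblasts came from embryos at embryonic day 13.5 to 14.5 that were homozygous for an inducible allele, either LSL-Nrf2D29H (a stop cassette in front of the mutant Nrf2) or CA-Keap1R554Q (a conditional allele that makes wild type Keap1 until it is switched). Adenovirus carrying Cre recombinase, at a multiplicity of infection of 500, turned on the mutant product, and RNA was taken 4 days later. With adenovirus without Cre, the LSL-Nrf2D29H cells are labelled Nrf2 knockout (3 libraries) and the CA-Keap1R554Q cells are labelled Keap1 wild type (3 libraries). Both mutant groups had therefore received Cre and virus, and both had been grown in DMEM without pyruvate. Each mutation came in its own culture, so the mutation and the culture it came from cannot be told apart in the Cre libraries alone. The same difference measured between the empty-virus libraries of those cultures, labelled knockout against wild type, is given beside many of the results for this reason. The libraries include no cells that received Cre virus without a targeted allele. The labels do not say whether the 3 libraries of a group came from separate embryos or dishes, so the p-values measure only the spread between these libraries.

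NRF2 (gene Nfe2l2) is a transcription factor that turns on genes for glutathione synthesis, detoxification, NADPH production and iron handling by binding antioxidant response elements (AREs) together with small MAF proteins. KEAP1 is the adaptor that holds NRF2 and passes it to the CUL3 ubiquitin ligase for degradation. R554Q changes the KEAP1 domain that binds NRF2, and D29H changes the DLG motif of NRF2 that KEAP1 grips, so that both mutations, found in human tumours, reduce NRF2 turnover from opposite sides of the same contact.

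Depth was even across the Cre libraries, at 20181187 to 22066822 counted reads, and ranged from 14963004 (labelled knockout, replicate 3) to 23818477 over all 12 libraries. Mitochondrial transcripts took 0.725% to 1.77% of reads, with the highest share in D29H replicate 2. Of the 12 fibroblast markers checked, all 12 were detected in the Cre libraries, with Col1a1 between 6992 and 9154 CPM (TMM-scaled read counts divided by the library's size), whereas the epithelial genes Epcam and Cdh1 stayed below 0.2 CPM in them. Of the epithelial list 4 members were tested, 2 of which were higher in R554Q cells, and the list summed to 48.18 to 57.32 CPM in R554Q and 34.03 to 51.92 CPM in D29H libraries. Differences are log2 values of R554Q minus D29H from edgeR's quasi-likelihood test with Benjamini-Hochberg adjustment, called at an adjusted p under 0.05.

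The 2 mutant cultures differed widely. Of 14403 genes tested, 1686 (11.7%) were higher and 1665 (11.6%) were lower in R554Q cells, and 694 genes (4.82%) were called with at least a 2-fold difference, 306 of them higher and 388 lower. The median log2 difference over all genes tested was -0.01. Leaving out R554Q replicate 1, D29H replicate 2 or D29H replicate 3 brought the counts to 1002 higher and 1044 lower, 1061 and 1047, and 996 and 1100, respectively. The empty-virus libraries of the same cultures were as far apart. In wild type against labelled knockout cells, 1610 of 14146 genes (11.4%) were higher and 1661 (11.7%) were lower.

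Many genes that differed between the mutants also differed between the empty-virus cells of the same cultures. That empty-virus gap sets wild type cells against cells labelled as lacking NRF2. It is the difference between the same cultures without Cre, in which the culture and the labelled loss of NRF2 cannot be told apart. Among 14005 genes tested in both virus arms, 909 were higher in the Keap1 culture in both, which is 55.3% of the genes higher with Cre and 56.8% of those higher with the empty virus. Another 908 were lower in both, 55.8% and 54.8% of the respective lists. The log2 differences of the arms correlated across genes (Pearson's r 0.786, Spearman's rho 0.635). The arms share no library but do share the cultures, and genes are not independent replicates, so these values describe the tables and carry no test. Only 7 genes were called in opposite directions, Slc7a11 among them.

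**Figure D1:**
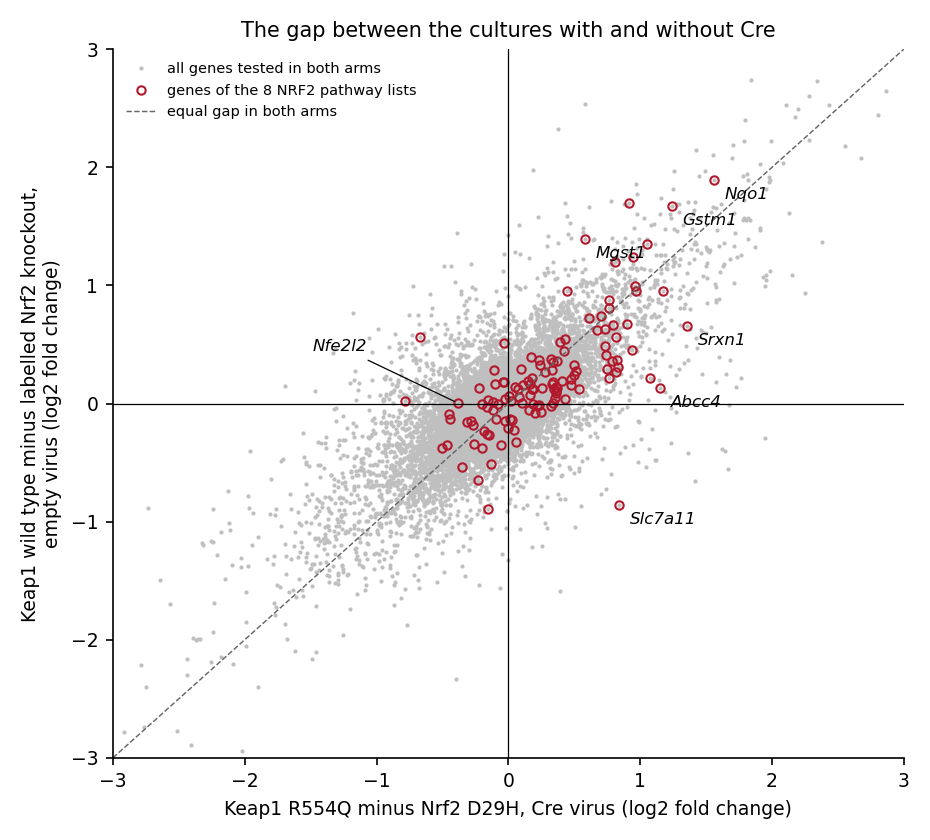
Each point is a gene tested in both arms (14005 genes, 36 of them beyond the axes); the x axis gives the log2 difference between Keap1 R554Q and Nrf2 D29H cells with Cre, the y axis that between wild type and labelled knockout cells with empty virus, and red circles mark the genes of 8 NRF2 pathway lists. The cloud runs along the dashed line of equal differences (r = 0.786), and Slc7a11 lies on the other side of the horizontal axis from most of the circled genes.

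A test of whether the gap itself differed between the arms, over all 12 libraries, called 4 of 14794 genes (0.0270%; 1668 genes had an unadjusted p under 0.05). All 4 belong to the NRF2 pathway lists. Slc7a11, Srxn1 and Abcc4 stood further above D29H in R554Q cells than the empty-virus gap, by 1.69 (adjusted p = 0.0436), 0.69 (0.0402) and 1.01 (0.0436) on the log2 scale. Mgst1 stood less far above, by -0.82 (0.0436). This call depended on single libraries: leaving out R554Q replicate 1, D29H replicate 2, D29H replicate 3 or wild type replicate 1 left 0 genes called (the adjusted p of these 4 rose to at most 0.208), whereas 26 were called without D29H replicate 1, 9 without labelled knockout replicate 1, 8 without R554Q replicate 2, and 1 or 2 without any one of the others.

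The transcripts of the targeted genes came first. Nfe2l2 (chr2:75675513-75704641, minus strand, mm10) was at 41.9, 33.8 and 46.4 CPM in R554Q cells and at 49.6, 56.6 and 52.2 CPM in D29H cells. The groups did not overlap, and the log2 difference was -0.38 (SE 0.11, adjusted p = 0.0207). The call was lost without R554Q replicate 1 (0.0595), R554Q replicate 2 (0.106), D29H replicate 2 (0.0926) or D29H replicate 3 (0.0512). In the empty-virus cells Nfe2l2 averaged 43.0 ± 1.2 CPM in wild type and 42.7 ± 3.2 CPM in the labelled knockout (SD, n = 3), a difference of 0.00, so counts summed over the gene do not tell these labelled groups apart and do not check the knockout label. Keap1 (chr9:21229730-21239332, minus strand) was at 48.2, 50.03 and 43.3 CPM in R554Q cells and 45.6, 39.9 and 51.3 CPM in D29H cells. These overlapped, with a log2 difference of 0.05 (SE 0.11, adjusted p = 0.786).

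Of the 13 regulators tested, Nfe2l2 and Keap1 included, 4 were higher in R554Q cells (30.8%, against 11.7% of all genes). Only 1, Nfe2l2, was lower (7.69%, against 11.6%). Sqstm1, which encodes the p62 adaptor that competes with NRF2 for KEAP1 and is itself an NRF2 target, was at 508, 487 and 544 CPM in R554Q cells and 337, 264 and 289 CPM in D29H cells. That is a log2 difference of 0.79 (SE 0.11, adjusted p = 5.91e-05) against 0.36 with the empty virus. Nfe2l1, a relative of NRF2 that controls proteasome genes, was higher by 0.37 (adjusted p = 0.01; 0.0617 without R554Q replicate 1), and by 0.36 with the empty virus. The CUL3 and RBX1 genes of the ligase were not called, with log2 differences of 0.19 (SE 0.10) and -0.02 (SE 0.10). Leaving out R554Q replicate 1 reduced the count of higher regulators from 4 to 1, and leaving out R554Q replicate 2 or D29H replicate 2 to 2.

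Genes of the NRF2 pathway were higher in R554Q than in D29H cells more often than lower. In 8 lists, which cover the regulators above as well as genes of the processes that NRF2 controls, with each gene counted once, 126 genes were tested, of which 55 (43.7%) were higher and 5 (3.97%) were lower in R554Q cells, against 11.7% and 11.6% of all genes. The median log2 difference was 0.25, and all 10 members that were called with at least a 2-fold difference were higher. Without R554Q replicate 1 the counts were 38 and 3. The lower count was also 3 without D29H replicate 2 or 3, and 8 without R554Q replicate 3. The empty-virus cells showed 38 higher and 10 lower of 123 tested, with a median of 0.14. Of the 55 genes, 35 were higher in both arms and 16 were tested but not called with the empty virus.

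Some of these genes carry the core of the ARE in their promoters. The letters TGACNNNGC, searched on both strands from 250 bases before to 50 after each RefSeq transcription start (GRCm38.p6), occurred for 14 of the 42 higher genes that had a promoter window (33.3%) and for 6 of the 62 other tested members (9.68%), against 14% of all genes with a window. The share of all genes covers 27025 genes with a window, whether tested or not, and only 42 of the 55 higher genes had a window. These shares are descriptions without a test, and a match of these letters is not a measured binding site. Windows of 6 genes are shown because they include 3 of the 4 genes that differed between the arms, together with the enzymes of glutathione synthesis, thioredoxin reduction and NADPH production that the results turn on; the capitals mark the 9 bases of the match, each read 5′ to 3′ on the strand that carries it.
Srxn1, chr2:152105542-152105570, minus strand: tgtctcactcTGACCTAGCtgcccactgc
Abcc4, chr14:118706226-118706254, plus strand: cggcccgcccTGACCCCGCctctcggggc
Mgst1, chr6:138140461-138140489, minus strand: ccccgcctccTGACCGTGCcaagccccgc
Gclm, chr3:122245413-122245441, minus strand: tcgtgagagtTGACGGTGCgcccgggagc
Txnrd1, chr10:82859104-82859132, minus strand: cgtgtcagaaTGACAAAGCaaaaatccag
Me1, chr9:86695902-86695930, minus strand: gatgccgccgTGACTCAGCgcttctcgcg
Along the gene, the first matched base lies 28 bases after the annotated start for Srxn1 and 25, 56, 134, 92 and 6 bases before it for the other genes in the order shown. Abcc4 has a further match before a second annotated start inside the gene. The windows of Nqo1 and Slc7a11 held no match to these letters.

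Glutathione synthesis and cystine uptake had 5 higher genes (41.7%, against 11.7% of all genes) and 0 lower genes of 12 tested, with a median of -0.06. Their summed level overlapped between the groups (1863 to 2024 CPM in R554Q and 1919 to 2021 CPM in D29H libraries). Slc7a11, the light chain of the cystine/glutamate exchanger, was at 16.7, 16.1 and 21.7 CPM in R554Q cells and at 9.84, 10.7 and 9.86 CPM in D29H cells. R554Q was higher by 0.84 (SE 0.13, adjusted p = 0.000185), whereas with the empty virus the Keap1 culture was lower by -0.86 (adjusted p = 0.0217; 2.84, 4.07 and 3.92 CPM in wild type and 5.06, 4.89 and 10.2 CPM in labelled knockout cells). Labelled knockout replicate 3 stood apart for this gene, and without it the difference between the arms was 1.30 instead of 1.69 (adjusted p = 0.0489). Gclm, the modifier subunit of the rate-limiting glutamate-cysteine ligase, was at 97.2, 106 and 122 CPM against 64.1, 59.3 and 59.0 CPM, higher by 0.83 (SE 0.10, adjusted p = 1.25e-05) and by 0.31 with the empty virus. Glutathione synthetase, Gss, was higher by 0.82 (adjusted p = 3.35e-05); it overlaps Acss2 on the opposite strand, whose counts were 10.5% of its own.

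The thioredoxin and peroxiredoxin systems had 5 higher genes (33.3%) and 1 lower gene (6.67%) of 15, against 11.7% and 11.6% of all genes. Srxn1 encodes sulfiredoxin, which restores over-oxidised peroxiredoxins (chr2:152105516-152111376, plus strand). It was at 307, 298 and 298 CPM in R554Q cells and at 120, 114 and 118 CPM in D29H cells, against 60.8, 57.7 and 59.4 CPM in wild type and 36.8, 37.4 and 38.2 CPM in labelled knockout cells. The 4 groups did not overlap, and the R554Q level exceeded the D29H level by 1.36 (SE 0.10, adjusted p = 9.38e-09), compared with 0.66 for the empty-virus gap. Prdx6, a peroxiredoxin that reduces phospholipid peroxides, was at 373, 318 and 374 CPM against 176, 148 and 147 CPM, higher by 1.17 (SE 0.11, adjusted p = 4.31e-07), with an empty-virus gap of 0.95. Txnrd1, the cytosolic thioredoxin reductase, was at 738, 755 and 820 CPM against 451, 446 and 435 CPM, higher by 0.79 (SE 0.10, adjusted p = 2.47e-05) and by 0.67 with the empty virus. The member that was lower was Prdx4, the peroxiredoxin of the endoplasmic reticulum, at -0.46 (SE 0.10, adjusted p = 0.0024). The count of higher members fell to 3 without R554Q replicate 1, D29H replicate 2 or D29H replicate 3.

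Glutathione transferases had 10 higher genes (52.6%, against 11.7% of all genes) and 0 lower genes of 19. The largest ratio was that of Gsta3, at 3.00, 2.89 and 2.08 CPM in R554Q cells and 0.687, 0.311 and 0.45 CPM in D29H cells, a difference of 2.45 (SE 0.33, adjusted p = 3.95e-05). Gsta1 was higher by 1.31 (SE 0.23, adjusted p = 0.000544); it has near-identical copies that could share its reads, and the counts summed over them differed by 1.30. Both alpha-class genes were near 0 in the empty-virus cells. Gstm1, of the mu class, was at 48.0, 41.6 and 45.9 CPM against 21.9, 18.9 and 16.5 CPM, higher by 1.24 (SE 0.12, adjusted p = 4.63e-07) and by 1.67 with the empty virus. Mgst1, the membrane-bound microsomal transferase, was at 50.5, 53.8 and 49.7 CPM against 33.4, 34.1 and 35.1 CPM, a difference of 0.58 (SE 0.10, adjusted p = 0.000239). In the empty-virus cells it was at 20.3, 22 and 21.4 CPM in wild type and 8.83, 8.67 and 6.31 CPM in labelled knockout cells, a wider gap of 1.39.

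Quinone, carbonyl and aldehyde detoxification gave 13 higher genes (56.5%, against 11.7% of all genes) and 0 lower genes of 23, with a median of 0.45. Nqo1, the quinone reductase that is widely used as the readout of NRF2 activity (chr8:107388225-107403206, minus strand), was at 369, 304 and 378 CPM in R554Q cells and 134, 107 and 115 CPM in D29H cells. Both mutants stood above the empty-virus cells, which held 33.2 ± 0.3 CPM in wild type and 8.84 ± 1.7 CPM in the labelled knockout (SD, n = 3). R554Q exceeded D29H by 1.56 (SE 0.12, adjusted p = 1.82e-08) and wild type exceeded the labelled knockout by 1.89. Aldh3a1, an aldehyde dehydrogenase, was low in every library, at 1.95, 1.40 and 1.98 CPM against 0.641, 0.4 and 0.27 CPM, a difference of 2.00 (SE 0.37, adjusted p = 0.000659).

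**Figure D2:**
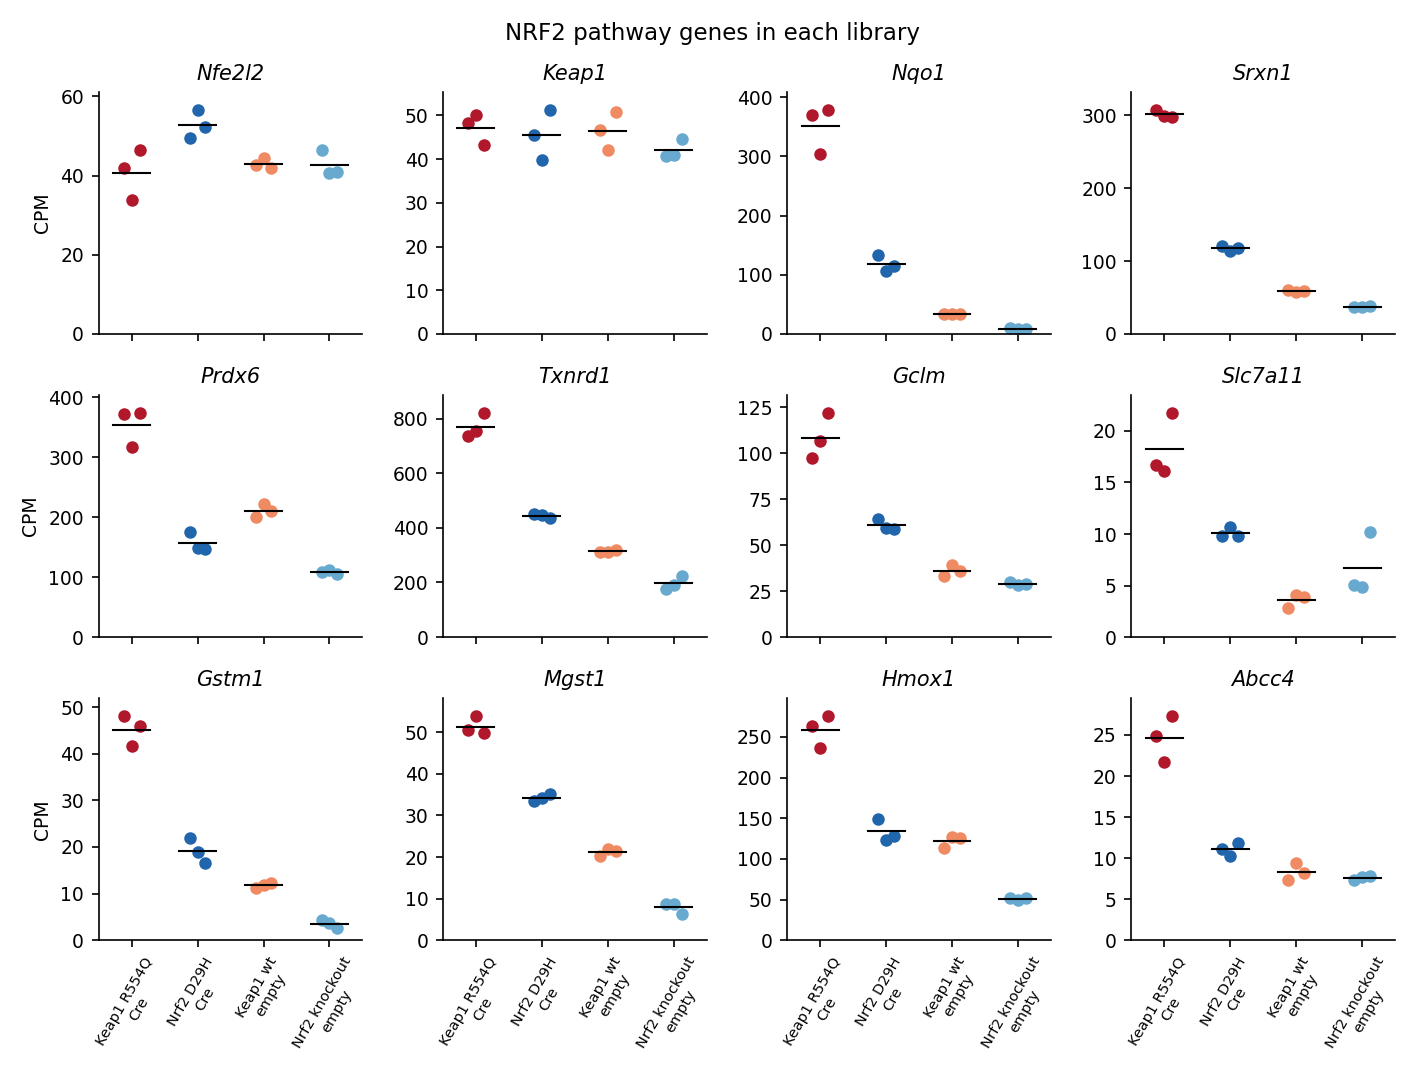
CPM of 12 pathway genes in each library (points) with the group mean (line), on axes that start at 0, for Keap1 R554Q, Nrf2 D29H, wild type and labelled knockout cells (3 libraries each). Nfe2l2 and Keap1 lay between 33.8 and 56.6 CPM in all 12 libraries, whereas Nqo1 lay between 304 and 378 CPM in R554Q and between 107 and 134 CPM in D29H libraries.

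The list of NADPH-producing and pentose phosphate enzymes had 6 higher genes (33.3%) and 1 lower gene (5.56%) of 18, against 11.7% and 11.6% of all genes. The higher ones included the pentose phosphate genes Taldo1 and Pgd. Taldo1, transaldolase, was at 270, 238 and 278 CPM against 168, 134 and 143 CPM, higher by 0.82 (SE 0.11, adjusted p = 3.13e-05) and by 0.27 with the empty virus. Pgd, 6-phosphogluconate dehydrogenase, was at 312, 301 and 348 CPM against 198, 177 and 196 CPM, higher by 0.75 (adjusted p = 4.07e-05) and by 0.29 with the empty virus. The cytosolic malic enzyme gene Me1 was higher by 0.77 (adjusted p = 0.000157) and by 0.81 with the empty virus. The lower gene was Aldh1l2, a mitochondrial folate enzyme, at -0.45 (adjusted p = 0.00803).

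Heme and iron genes had 10 higher members (58.8%, against 11.7% of all genes) and 0 lower members of 17. Slc40a1, which encodes the iron exporter ferroportin, was at 12, 10.5 and 12.7 CPM against 6.09, 6.23 and 4.59 CPM, higher by 1.05 (SE 0.15, adjusted p = 7.35e-05). Hmox1, heme oxygenase 1, was at 264, 236 and 275 CPM against 149, 124 and 128 CPM, higher by 0.95 (SE 0.11, adjusted p = 3.86e-06) and by 1.24 with the empty virus. The heme transporter gene Slc48a1 was higher by 0.96 in both arms (adjusted p = 1.66e-06 with Cre); it overlaps Hdac7 on the opposite strand, whose counts were 99.7% of its own. Per length, the ferritin light chain gene Ftl1 was the most abundant named member, with a mean of 9401 FPKM in R554Q and 6030 FPKM in D29H cells.

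Of the 9 efflux transporters tested, 2 were higher and 2 were lower (22.2% each, against 11.7% and 11.6% of all genes). Abcc4, which exports cyclic nucleotides and glutathione conjugates (chr14:118482692-118706219, minus strand), was at 24.9, 21.7 and 27.3 CPM in R554Q cells and at 11.1, 10.2 and 11.8 CPM in D29H cells. The empty-virus groups lay together, at 7.38, 9.46 and 8.22 CPM in wild type and 7.33, 7.65 and 7.87 CPM in labelled knockout cells. The difference was 1.15 with Cre (SE 0.12, adjusted p = 2.03e-06) and 0.13 without it. Abcb1b, a multidrug efflux pump, was lower in R554Q cells by -0.51 (adjusted p = 0.00235). Single libraries decided the counts, since leaving out R554Q replicate 1 or D29H replicate 3 left 1 higher and 1 lower gene, D29H replicate 1 left 1 higher and D29H replicate 2 left 1 lower.

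Other stress programmes were examined beside NRF2. ATF4 is the transcription factor of the amino acid stress response. Of 23 genes of that response, Atf4 itself included, 0 were higher and 5 were lower (21.7%, against 11.6% of all genes), with a median of -0.14. With the empty virus 4 were higher and 7 lower. With Cre the lower count was 3 without R554Q replicate 1 or 2 and 2 without D29H replicate 3. Of 18 p53 targets 3 were higher (16.7%, against 11.7% of all genes), and of 18 chaperones of the endoplasmic reticulum 1 was higher (5.56%; 8 without D29H replicate 1, 0 without R554Q replicate 1 or 2 or D29H replicate 2).

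**Figure D3:**
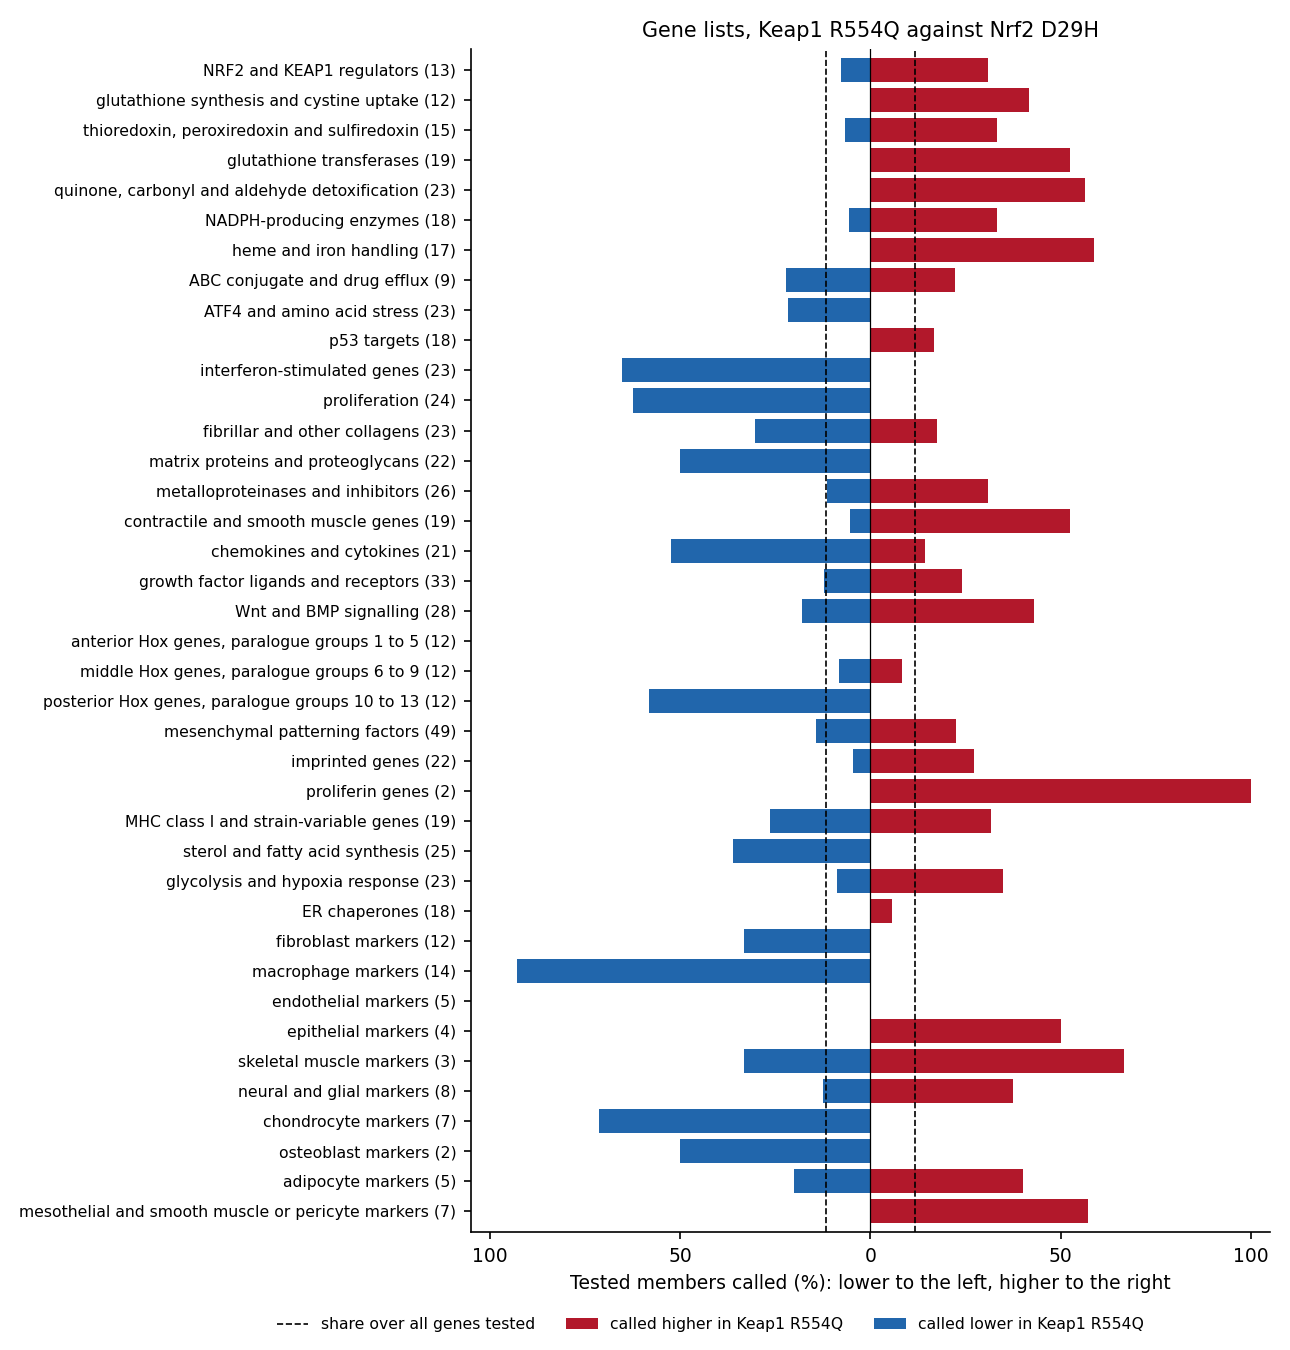
For each gene list and marker list, bars show the percentage of its tested members (number in brackets) called higher (red, to the right) or lower (blue, to the left) in Keap1 R554Q cells; dashed lines give the shares over all genes tested, 11.7% and 11.6%. The quinone and heme lists reach 56.5% and 58.8% higher, and the macrophage markers 92.9% lower.

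Cell type markers also separated the cultures. Of 14 macrophage markers, 13 were lower in R554Q cells (92.9%, against 11.6% of all genes) and 0 were higher, with a median log2 difference of -1.23. In the wild type cells with the empty virus 12 were lower. Their summed level was 87.74 to 102.6 CPM in R554Q, 195.7 to 223.3 CPM in D29H, 118.3 to 130.4 CPM in wild type and 173.6 to 215.7 CPM in labelled knockout libraries. None of these markers was at 0 in either mutant. In RNA from whole cultures, fewer cells of a type and less RNA per cell cannot be told apart. Csf1r, the receptor for the macrophage growth factor, was chosen after its values were seen: it stood at 7.36, 6.68 and 8.12 CPM in R554Q cells and 17.3, 18.4 and 17.2 CPM in D29H cells, a difference of -1.26 (adjusted p = 1.16e-06). Coro1a, Fcrls and Cyth4, which are typical of blood-derived cells, were among the 12 largest falls of called protein-coding genes with 100 counts or more on average and no overlap, at -1.76, -1.73 and -1.62.

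Interferon-stimulated genes were lower in R554Q cells: 15 of 23 tested were lower (65.2%, against 11.6% of all genes) and 0 higher, with a median of -1.01. Where the low-count filter was raised to a mean of 50, 6 of 12 were lower and the median was -0.60. With the empty virus 10 of 21 were lower and 1 higher (median -0.58). Most were at a few CPM or less. Isg15, a ubiquitin-like protein, was at 2.65, 1.26 and 2.28 CPM against 11.4, 3.78 and 6.71 CPM in D29H cells, a difference of -1.83 (SE 0.32, adjusted p = 0.000473). Mx2 and Xaf1, also induced by interferon, differed by -2.22 and -2.11 (adjusted p = 0.00144 and 0.000218). B2m was the largest part of the list's summed level, which was 360.2 to 425.9 CPM in R554Q and 385.5 to 470.8 CPM in D29H libraries, with overlap, and was higher in wild type (406.3 to 429.8 CPM) than in labelled knockout libraries (373.9 to 382.1 CPM). Summed without B2m, a choice made after its values were seen, the list held 119.3 to 131.2 CPM in R554Q and 187.6 to 223.6 CPM in D29H libraries, and 113.2 to 119.8 and 158.4 to 166.2 CPM in wild type and labelled knockout libraries. The macrophage markers moved the same way in both arms, and their part in this result was not tested.

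Chemokine and cytokine genes were lower more often than higher. Of 21, 11 were lower (52.4%, against 11.6% of all genes) and 3 higher (14.3%, near the 11.7% of all genes), with a median of -0.31. With the empty virus, by contrast, 7 were lower and 6 higher (median -0.09). Cxcl5, a neutrophil-attracting chemokine, was at 19, 23.4 and 21 CPM in R554Q cells and 55.9, 62.0 and 59.5 CPM in D29H cells, a difference of -1.49 (SE 0.11, adjusted p = 1.05e-08), with -1.54 in the empty-virus arm. Cxcl1, of the same family, differed by -1.78 (adjusted p = 1.81e-07) and by -1.69 with the empty virus. Ccl20 was near or below 2 CPM and differed by -1.95 (adjusted p = 0.000754). The macrophage marker sums given above also differed between these groups, and their part was not tested.

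Cell cycle genes were lower in R554Q cells as well, 15 of 24 (62.5%, against 11.6% of all genes) with 0 higher, at a median of -0.48. Aurka, a mitotic kinase, was at 45.8, 44.8 and 48.9 CPM against 96.3, 74.6 and 75.8 CPM, a difference of -0.83 (SE 0.11, adjusted p = 2.76e-05). Mki67 and Ccnb1, a proliferation antigen and a mitotic cyclin, differed by -0.79 and -0.76 (adjusted p = 0.000194 and 3.81e-05). The list summed to 1556 to 1796 CPM in R554Q and 2020 to 2293 CPM in D29H libraries. In the empty-virus cells 23 of the 24 were lower in wild type than in labelled knockout cells.

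**Figure D4:**
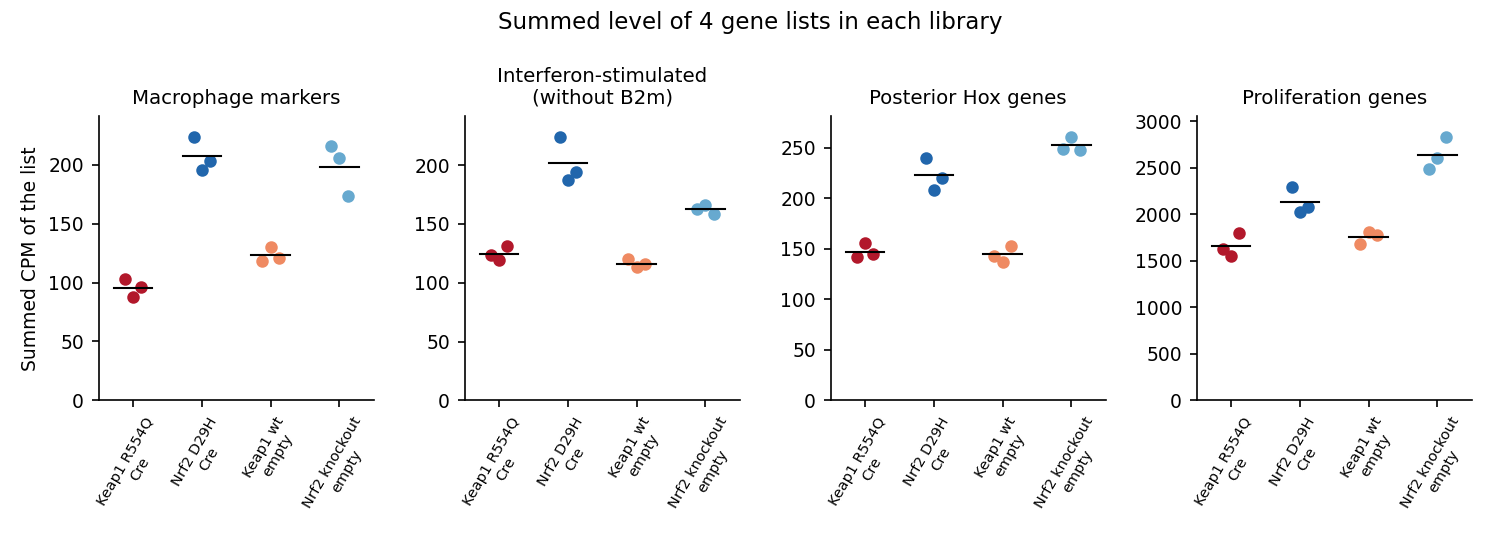
Summed CPM of macrophage markers, interferon-stimulated genes without B2m, posterior Hox genes and proliferation genes in each library (points, with the group mean as a line; axes start at 0) for the 4 groups of 3 libraries. In each panel both Keap1 groups lie below both Nrf2 groups, for example 142 to 155.3 against 207.8 to 240.1 CPM for the posterior Hox genes with Cre; with B2m included, the interferon sums of the Cre groups overlap.

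Extracellular matrix and contractile genes also differed. Of 22 matrix proteins and proteoglycans, 11 were lower in R554Q cells (50%, against 11.6% of all genes) and 0 higher (7 lower without R554Q replicate 1). Markers of chondrocytes, the cells of cartilage, moved with these genes: 5 of 7 tested were lower and 0 higher (0 lower without R554Q replicate 1, 2 without D29H replicate 3, and 3 without R554Q replicate 3 or D29H replicate 2; 2 of 4 with the low-count filter at a mean of 50). Their summed level was 55.27 to 60.68 CPM in R554Q and 72.55 to 80.39 CPM in D29H libraries. Of 12 fibroblast markers, 4 were lower (33.3%, against 11.6% of all genes) and 0 higher. Only 2 were lower without R554Q replicate 1 or D29H replicate 3. Without D29H replicate 1 or with GC and length offsets 2 were higher. In 4 other settings 1 was higher: without R554Q replicate 2, by DESeq2, with all 12 libraries in 1 fit, and with length offsets and a replicate block. Both marker lists share genes with the matrix and collagen lists, and their part in these differences was not tested. Elastin, Eln, was at 14.4, 18.0 and 15.1 CPM against 43.4, 41.2 and 46.0 CPM, a difference of -1.46 (SE 0.11, adjusted p = 3.16e-08). Fbn2, a fibrillin of elastic fibres, differed by -1.13 (adjusted p = 1.09e-06). Of 23 collagens 4 were higher (17.4%, against 11.7% of all genes) and 7 lower (30.4%, against 11.6%). The lower count was 2 without R554Q replicate 1 or D29H replicate 3 and the higher count 1 without D29H replicate 2. The fibrillar collagen gene Col3a1 differed by -0.93 (adjusted p = 5.83e-06) and the basement membrane collagen gene Col4a1 by 0.47 (adjusted p = 0.00426). Against 11.7% and 11.6% of all genes, 10 of 19 contractile genes were higher (52.6%) and 1 was lower (5.26%). Of these contractile genes, 6 were higher without R554Q replicate 1 and 0 lower without R554Q replicate 2 or D29H replicate 1. Markers of mesothelial cells, smooth muscle and pericytes moved with them: 4 of 7 were higher and 0 lower, with a median of 0.86 and 4 higher in both arms, none was at 0, and they summed to 221.8 to 235.8 CPM in R554Q and 181.2 to 220.6 CPM in D29H libraries. Myh11 is on both lists, and the part of these markers was not tested. Smooth muscle myosin, Myh11, was at 53.7, 60.4 and 48.2 CPM against 17.9, 22.6 and 21.2 CPM, higher by 1.39 (SE 0.12, adjusted p = 8.49e-08), and the smooth muscle actin gene Acta2 was higher by 0.58 (adjusted p = 0.00428). Skeletal actin, Acta1, was at 303, 274 and 314 CPM against 112, 96.3 and 88.5 CPM, higher by 1.58 (SE 0.11, adjusted p = 6.97e-09), while the skeletal muscle genes Myog and Myh3 were at or below 0.25 CPM in every library. Of the skeletal muscle markers 3 were tested, 2 of which were higher and 1, Tnnt3, lower by -1.25 (adjusted p = 0.0444; not called without R554Q replicate 3 or any one of the D29H replicates). The gaps with the empty virus were -1.42 for Eln, 1.48 for Myh11 and 1.47 for Acta1.

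The genes that mark position along the body and limb differed as well. Of 12 posterior Hox genes (paralogue groups 10 to 13), 7 were lower in R554Q cells (58.3%, against 11.6% of all genes) and 0 higher. The median was -0.70, and 9 were lower with the empty virus. None of 12 anterior Hox genes was called, where 11.7% of all genes were higher and 11.6% lower. Of 12 middle Hox genes 1 was higher and 1 lower (8.33% each, near those shares). The lower count was 2 without R554Q replicate 2 or D29H replicate 1. Hoxd13, the most posterior HoxD gene, was at 53.8, 53.6 and 53.2 CPM in R554Q cells and 102, 80.9 and 85.1 CPM in D29H cells, a difference of -0.74 (SE 0.10, adjusted p = 4.83e-05). The summed posterior list of the wild type cells, 137.2 to 153.2 CPM, overlapped that of the R554Q cells, and the labelled knockout held 247.5 to 260.3 CPM. Other patterning factors included Tbx20, higher by 2.67 (SE 0.41, adjusted p = 0.00013), Msx2, higher by 1.39 (SE 0.12, adjusted p = 8.59e-08), and Meox1, lower by -3.49 (SE 0.49, adjusted p = 5.13e-05). Of 49 such factors tested 11 were higher (22.4%, against 11.7% of all genes) and 7 lower (14.3%, near the 11.6% of all genes), with a median of 0.02. With the empty virus 5 were higher and 16 lower, with a median of -0.17. In both arms 2 were higher and 7 lower. With Cre, between 5 and 6 were higher without R554Q replicate 1 or 2 or D29H replicate 2 or 3. In Wnt and BMP signalling 12 of 28 were higher (42.9%, against 11.7% of all genes) and 5 lower (17.9%, against 11.6%), with a median of 0.30. The higher count was 7 without R554Q replicate 1 or D29H replicate 2 or 3. With the empty virus 7 were higher and 6 lower, with a median of -0.08. The BMP antagonist Grem1 was at 522, 520 and 560 CPM against 220, 238 and 222 CPM, higher by 1.23 (SE 0.10, adjusted p = 7.47e-08) and by 1.57 with the empty virus.

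Among the 12 largest rises and 12 largest falls, by the same limits on counts and overlap, were several genes with near-identical copies, and those named here had the same direction without Cre. The proliferin genes Prl2c2 and Prl2c3, which encode placental-type prolactin relatives, were higher by 5.28 and 4.02 (adjusted p = 1.69e-11 and 1.52e-11). Because they are near-identical copies they were also summed, giving 32.66 to 38.1 CPM in R554Q and 1.26 to 2.426 CPM in D29H libraries, against 2.902 to 3.05 CPM in wild type and at most 0.0857 CPM in labelled knockout libraries. Ifi202b, an interferon-inducible gene, had 1 read in the 3 R554Q libraries together and 615 in the 3 D29H libraries, a ratio of D29H over R554Q of 576 (exact 95% interval 103 to 22800, counting error only). It had 1 read in the wild type and 398 in the labelled knockout libraries. Gm8730, a copy of the ribosomal gene Rplp0, was lower by -6.38, yet the counts summed over all its copies were 3916 ± 247 and 3986 ± 456 CPM (SD, n = 3). Pcna-ps2, a copy of Pcna, was higher by 4.45 although the sum of the pair was lower in R554Q cells, by -0.38. The ribosomal gene Rpl29 summed over its copies held 168.7 ± 29.5 CPM in R554Q and 717.6 ± 70.8 CPM in D29H cells, with 158.8 ± 13.7 and 729.6 ± 64.5 CPM in wild type and labelled knockout cells (SD, n = 3).

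Genes close to the 2 targeted loci were called about as often as genes elsewhere. Within 5 Mb of Nfe2l2, 17 of 67 tested genes were called (25.4%, exact 95% interval 15.5% to 37.5%), and within 5 Mb of Keap1 19 of 80 (23.8%, 14.9% to 34.6%), against 23.3% of all genes. Of these, 7 were higher and 10 lower near Nfe2l2 (0 and 7 within 2 Mb), and 5 higher and 14 lower near Keap1 (4 and 13 within 2 Mb).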

How the data were processed

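RNA of 12 libraries was sequenced. STAR, DESeq2 and the mm10 build are named, without versions, in the submitters' processing notes; the counting tool and its strand setting are not given in the sources used here. The deposited tables, per the file headers, hold read counts per gene and FPKM values (counts per length and depth) for each library. They also hold the authors' own fold changes as log2, p-values, adjusted p-values and normalised signal means, and gene lengths, which were not used for results. The deposited counts of both tables were joined on gene identifier. Levels are CPM scaled by TMM over all 12 libraries, and differences come from fits of the 6 libraries compared (edgeR 4.0.16, quasi-likelihood test, filterByExpr, TMM, Benjamini-Hochberg). The difference between the virus arms was fitted over all 12. Scripts were tested on simulated data. DESeq2 1.42.0 and limma 3.58.1, other filters and scalings, GC and length offsets, a replicate block and leave-outs served as alternatives. Near-identical copies were found with blastn 2.17.0 (at least 95% identity over at least 50% of the longest transcript).

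The comparison and the 29 gene lists were chosen with earlier results of these data known. Named genes were Nfe2l2 and Keap1, the 12 largest rises and falls (called, protein-coding, groups without overlap, 100 counts or more on average), up to 3 called genes per list and direction, pathway genes with at least a 2-fold difference, called differences between the arms and up to 3 genes per window round each locus; names outside this rule, including members with high levels and markers, were chosen after their values were seen. SD and n = 3 refer to libraries. The interval of a read ratio covers counting error only, since reads are not independent molecules; intervals of shares of genes are binomial and treat neighbouring genes as independent, which they are not.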

Additional observations from a re-analysis of the deposited data

Results flagged for a closer look

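The gap between the Keap1 and the Nrf2 culture differed between the Cre and the empty virus for 4 genes, by edgeR's test of the difference itself. For Slc7a11 this difference was 1.69 on the log2 scale: R554Q was higher than D29H with Cre, and wild type was lower than the labelled knockout without it. For Abcc4 it was 1.01, with a gap with Cre and nearly none without. For Srxn1 it was 0.69, and for Mgst1 it was -0.82, with the gap wider and narrower with Cre, respectively. The adjusted p-values were 0.0436, 0.0436, 0.0402 and 0.0436. The direction held under all alternatives that gave a value (16 for each gene, 17 for Srxn1), and the gene was called in 8, 6, 10 and 4 of them in the order Slc7a11, Abcc4, Srxn1 and Mgst1.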

How the results depend on the processing

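Of 3351 genes called between R554Q and D29H cells, 1552 (778 higher, 774 lower) were called in all 6 fits that left out 1 library, and 0 changed sign. The counts then ranged from 996 to 1956 higher and from 1044 to 2002 lower. An adjusted p under 0.01 gave 869 higher and 826 lower, and a 2-fold minimum 306 and 388. In the empty-virus arm the leave-out ranges were 1027 to 2112 higher (1066 without wild type replicate 1, 1027 without labelled knockout replicate 2) and 1127 to 2341 lower. The count of 4 genes that differed between the arms was 32 with no filter on low counts, 1 with a mean of at least 50 counts, 53 by DESeq2 and 0 to 26 over the leave-outs; the cause was not tested. Keap1, not called in any of these, changed sign to -0.01 with GC and length offsets, to 0 without R554Q replicate 2 and to -0.05 without D29H replicate 2, and over all leave-outs it lay between -0.05 and 0.13. Same-numbered libraries correlated at 0.046, 0.119 and -0.189 in their deviations from the group means, and not every library correlated best with its own number, so the numbers do not pair the samples. With a replicate block the counts were 1599 higher and 1641 lower, 1552 and 1584 in the empty-virus arm, and 2 for the difference between the arms. Upper-quartile scaling gave 1420 higher and 1967 lower and moved the median of all genes to -0.05. Leaving out R554Q replicate 2 or 3 or D29H replicate 1 gave 1 call against the direction of the list in 6 gene lists and 3 marker lists that had 0, except that fibroblast markers had 2 without D29H replicate 1. Of 137 named called genes, 109 kept their call in all 6 leave-out fits. Aldh3a1, Gsta3 and several interferon-stimulated genes were near or below 1 CPM in some libraries, and the effect of depth on them was not tested. Aldh3a1 and Gsta3 kept their call in all 15 alternatives that gave a value.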

Other observations

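Further gene groups differed between the mutant cultures. Of 25 genes of sterol and fatty acid synthesis, 9 were lower in R554Q cells (36%, against 11.6% of all genes) and 0 higher. The lower count was 4 without R554Q replicate 1, 5 without D29H replicate 3 and 14 with GC and length offsets. Of 23 glycolysis and hypoxia genes 8 were higher (34.8%, against 11.7% of all genes) and 2 lower (8.7%, against 11.6%). With the empty virus 1 was higher and 2 were lower, with a median of 0.01. With Cre the higher count was 3 without D29H replicate 2, 4 without R554Q replicate 1 or D29H replicate 3, and 5 without R554Q replicate 3. The lower count was 0 without R554Q replicate 1 or D29H replicate 3, and 1 without R554Q replicate 3 or D29H replicate 2. Of 26 metalloproteinases and their inhibitors 8 were higher (30.8%, against 11.7% of all genes) and 3 lower (11.5%, against 11.6%), and the gelatinase gene Mmp2 was higher by 1.13. The imprinted gene Dlk1 was at 77.4, 78.9 and 85.4 CPM in R554Q cells and 46.4, 40.4 and 41.8 CPM in D29H cells, a difference of 0.91, with 0.14 in the empty-virus arm; the difference between these gaps was not called.

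Of 8 neural and glial markers tested 3 were higher in R554Q cells (37.5%, against 11.7% of all genes) and 1 (12.5%, near the 11.6% of all genes), Map2, was lower, by -0.98. Stmn2, which encodes the neuronal protein stathmin 2, was at 26.5, 26.5 and 30.4 CPM in R554Q cells and 11.9, 7.52 and 9.90 CPM in D29H cells. Sox10, a neural crest and glial factor, was higher in R554Q cells by 2.13 at levels of at most 2.87 CPM. Endothelial markers gave 0 calls of 5 tested, where 23.3% of all genes were called.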
